A study of Arabidopsis thaliana with 26 samples.

Results

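Among the genes that castasterone and brassinolide raised in Arabidopsis thaliana seedlings, 102 probe sets were already higher after the earliest steroids of the biosynthetic route that were applied with a side chain hydroxyl, cathasterone and 6-deoxocathasterone. They were found in 22746 probe sets of the ATH1 array. A probe set is a group of short oligonucleotides that report 1 transcript or, in some cases, several. The change D of a probe set was the mean log2(intensity + 5) of a treatment minus the mean of the 4 mock and campestanol arrays. A member had a mean intensity of at least 20 over the 26 arrays and was selected on measured values, by a D of at least 0.8 after both brassinolide and castasterone. Its mean D after cathasterone and 6-deoxocathasterone was at least 0.35 times its mean D after brassinolide and castasterone, a ratio called the early share here. Of 360 probe sets induced by both late steroids, 108 passed this ratio. EXPA8 and EXO were left out with their families and 4 more by their identifiers, which left the 102, and 246 induced probe sets with a lower early share served for comparison. The platform annotation named 1 gene for 41 of the members, several for 2 and none for 59.

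Brassinosteroids are plant steroid hormones that promote cell elongation and shape seedling growth in light and darkness. They are bound outside the cell by the receptor kinase BRI1 and its homologues, and the signal reaches the nucleus through the transcription factors BZR1 and BES1. The hormones are made from campestanol by hydroxylation of the side chain, oxidation and reduction at carbon 3, hydroxylation at carbon 2 and oxidation at carbon 6, and brassinolide, with a lactone in its ring, is the most active of them. The route runs in a pair of branches that differ in a ketone at carbon 6, the 6-oxo branch (cathasterone, teasterone, 3-dehydroteasterone, typhasterol and castasterone) and the 6-deoxo branch of the same steps without the ketone.

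The plants were whole 7-day-old seedlings of the Col background, stock N6159, described as de-etiolated, and all groups shared these labels. The labels do not state the genotype of this stock, and wild type is not assumed. Seedlings were treated for 3 h with 1 of 9 intermediates at 1 µM (cathasterone, teasterone, 3-dehydroteasterone and typhasterol of the 6-oxo branch, and 6-deoxocathasterone, 6-deoxoteasterone, 3-dehydro-6-deoxoteasterone, 6-deoxotyphasterol and 6-deoxocastasterone of the 6-deoxo branch), with castasterone at 100 nM, with brassinolide at 10 nM, with campestanol at 10 µM or with a mock treatment. Each of the 13 groups had 2 arrays, lettered A and B, and no label ties the letters to separate cultures. The p-values therefore cover the spread between arrays that may be technical repeats. Whole plants were sampled, so a rise in few cells and a smaller rise in all cells cannot be told apart. How much of an applied steroid the seedlings converted to a later one was not tested.

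The values were MAS5 intensities on a linear scale, which the authors had scaled so that the trimmed mean of every array lay near 100 (99.96 to 99.97), and array medians ranged from 33.9 to 41.0. Precision is limited by the 2 arrays of a group. The lists of brassinosteroid genes and of tissue markers could not be read here: 2 of their 64 genes had a named probe set, of which the brassinosteroid signalling gene was too dim to be tested. The root marker EXPA7, a root hair expansin, lay between 106 and 240.5 on all arrays, and no photosynthetic or seed marker had a named probe set, so the labelled tissue was not checked further. The rule used 12 arrays, those of mock, campestanol, 6-deoxocathasterone, cathasterone, castasterone and brassinolide, and values of these arrays are given as a description. The 14 arrays of the other 7 intermediates did not choose the members. Differences among them were tested, whereas their D still contains the mock and campestanol arrays of the rule and was not tested.

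The members ranged widely in how much of the late change they showed early. The early share had a median of 0.461 and ran from the threshold to 1.09, and 59 members lay under 0.5 and 11 at 0.7 or above. Mean D after brassinolide and castasterone had a median of 1.15 and reached 2.68. The members were of moderate signal, with a median intensity of 83.5 over all arrays and a range of 21.8 to 748. On the early arrays 80 of 102 had a higher D after cathasterone than after 6-deoxocathasterone, beside 50.8% of all tested probe sets. All 4 cathasterone and 6-deoxocathasterone arrays lay above all 4 mock and campestanol arrays for 52 members, beside 1.76% of all tested probe sets. For castasterone and brassinolide this held for 95 members, beside 7.37%. These arrays set the rule, so the counts describe the choice.

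The members' median D was above 0 after every intermediate, against mock and campestanol arrays that had part in the choice. In the 6-oxo branch median D was 0.93 after teasterone, 1.04 after 3-dehydroteasterone and 1.10 after typhasterol. In the 6-deoxo branch it was 0.67 after 6-deoxoteasterone, 1.03 after 3-dehydro-6-deoxoteasterone, 0.82 after 6-deoxotyphasterol and 1.14 after 6-deoxocastasterone. After castasterone and brassinolide it was 1.11 and 1.17, and after 6-deoxocathasterone and cathasterone 0.50 and 0.64. Over all 17606 tested probe sets the median D lay between -0.04 and 0.02 in each treatment. D was above 0 after all 7 intermediates for 100 of the 102 members, and for 2104 of all 17606 tested probe sets, and the exceptions among the members were ndhF and ndhG. For 59 members all 14 intermediate arrays exceeded all 4 mock and campestanol arrays, beside 1.13% of all tested probe sets. These values and counts use the 4 mock and campestanol arrays of the rule, so they are not independent of the choice and were not tested.

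**Figure D1:**
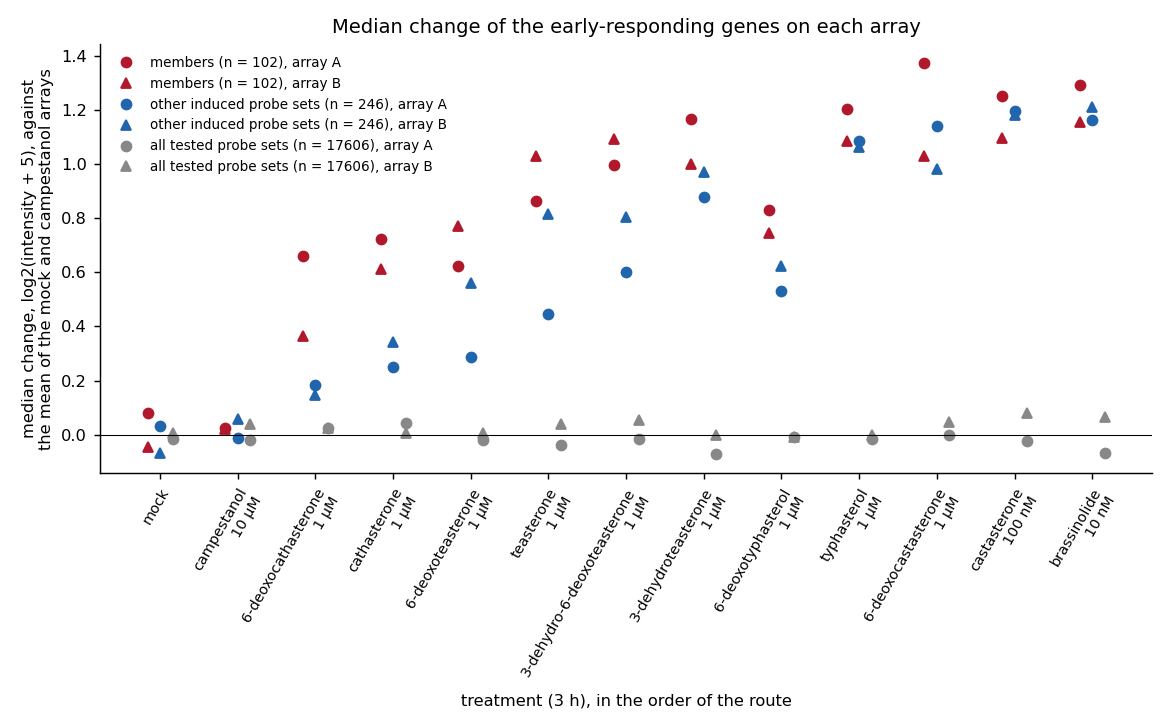
Median change D (log2 scale, vertical axis) of the 102 members, the 246 other induced probe sets and all 17606 tested probe sets on each of the 26 arrays, with treatments in the order of the route on the horizontal axis, circles for array A and triangles for array B. The members' medians stand above those of the other induced probe sets on all arrays of the earlier intermediates and lie closer to them after typhasterol, castasterone and brassinolide.

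The other induced probe sets had a lower start by definition, since the rule set them apart by a lower early share. Their late change had to pass the same minimum, and its median was 1.15 in these probe sets and in the members. They were brighter, with a median intensity of 131.5 over all arrays, against 83.5 for the members. In the 6-oxo branch the median D of the other induced probe sets was 0.62 after teasterone, 0.92 after 3-dehydroteasterone and 1.04 after typhasterol. In the 6-deoxo branch it was 0.42 after 6-deoxoteasterone, 0.67 after 3-dehydro-6-deoxoteasterone, 0.59 after 6-deoxotyphasterol and 1.03 after 6-deoxocastasterone. Castasterone at 100 nM and brassinolide at 10 nM were given at lower doses than the intermediates at 1 µM, so the late change serves here as a scale within each probe set and ranks no compounds. As a percentage of each probe set's own late change, the median after 6-deoxoteasterone was 55.2% for the members and 34.3% for the other induced probe sets. After teasterone it was 75.8% and 51.4%, after typhasterol 91.2% and 88.9%, and after 6-deoxocastasterone 95.3% and 86.3%. At least 50% of the late change was reached after 6-deoxoteasterone by 62 of 102 members and 52 of 246 other induced probe sets, and after teasterone by 89 and 130. After typhasterol the counts were 99 of 102 and 241 of 246. These values share the mock and campestanol arrays and the late change with the rule, so they were not tested.

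**Figure D2:**
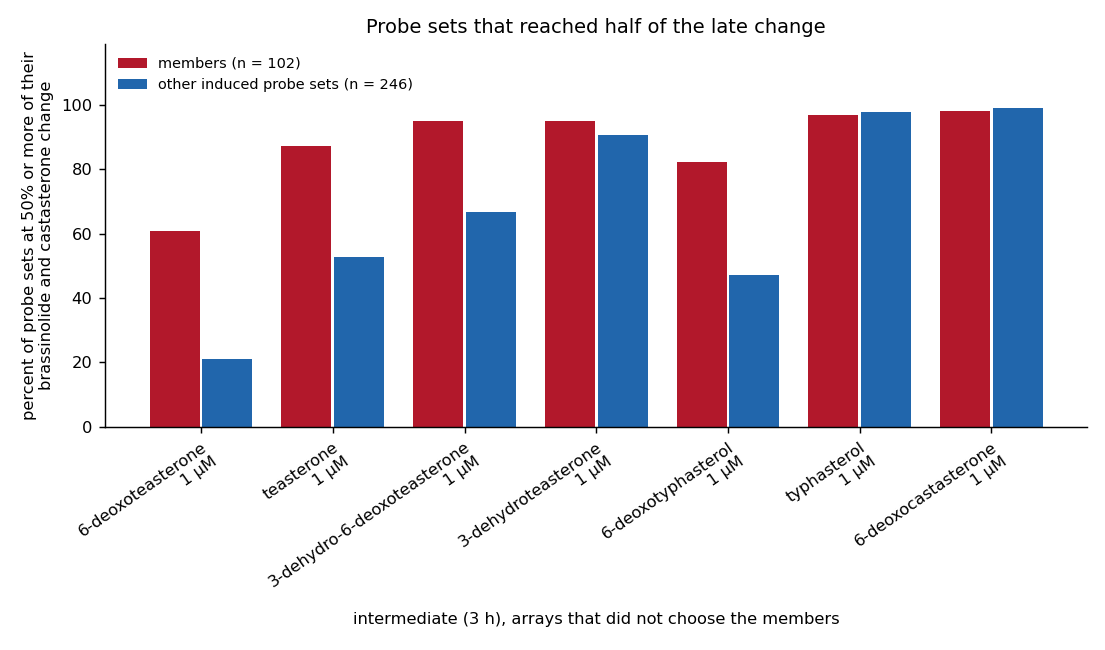
Percent of probe sets that reached at least 50% of their own mean change after castasterone and brassinolide (vertical axis), for the 102 members and the 246 other induced probe sets after each of the 7 intermediates whose arrays did not choose the members. The bars differ most after 6-deoxoteasterone, teasterone and 6-deoxotyphasterol (60.8% against 21.1%, 87.3% against 52.8% and 82.4% against 47.2%) and least after typhasterol (97.1% against 97.97%) and 6-deoxocastasterone (98.04% against 99.2%).

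Signalling proteins that bind calcium or membrane lipid formed 1 of the role groups. AT4G27280 encodes a protein with EF-hands, which are calcium-binding loops. Its intensity was 71.5 and 74.6 in mock, 62.03 and 101 after campestanol, 179.6 and 119 after 6-deoxocathasterone, 167 and 199 after cathasterone, 275 and 232 after 6-deoxoteasterone and 276 and 257 after teasterone. It was 301 and 257 after 3-dehydro-6-deoxoteasterone, 417 and 329.7 after 3-dehydroteasterone, 247 and 201 after 6-deoxotyphasterol, 449 and 303 after typhasterol, 399.9 and 309 after 6-deoxocastasterone, 399 and 275 after castasterone and 348 and 243 after brassinolide. All 22 arrays from 6-deoxocathasterone on were above all 4 mock and campestanol arrays, and array A was the higher of the pair in most treatments. D was 1.67 after 6-deoxoteasterone at 1 µM and 1.87 after brassinolide at 10 nM, doses that differ. AT5G39670, also of the EF-hand type, read 17.5 and 24.2 in mock, 12.5 and 20.9 after campestanol, 26.9 and 34.1 after 6-deoxocathasterone and 40.8 and 26.96 after cathasterone. Its arrays read 82.2 and 91.1 after 6-deoxocastasterone at 1 µM, 51.2 and 49.6 after castasterone at 100 nM and 45.8 and 43.9 after brassinolide at 10 nM, doses that differ, while the other 12 intermediate arrays lay between 23.1 and 67.2. AT4G34150, which has a lipid-binding C2 domain, lay between 174 and 185 on the mock and campestanol arrays, 219 and 249 on the 4 early arrays, 255 and 419 on the 14 intermediate arrays and 317 and 375 on the 4 late arrays, with no overlap with mock and campestanol at any stage.

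Receptors, peptides and kinases were represented by 4 named members. THE1 (THESEUS1) is a receptor kinase that senses the state of the cell wall. It read 112 and 84.5 in mock, 104 and 95.4 after campestanol, 148 and 118 after 6-deoxocathasterone and 153 and 158 after cathasterone. Over the 14 intermediate arrays it lay between 135 and 261 with a median of 189, and it read 267 and 226 after castasterone and 239 and 239 after brassinolide. RALFL33 belongs to the RALF peptides, which are secreted signals perceived by receptors of the family that holds THE1. It lay between 159 and 194 on the mock and campestanol arrays, and its 14 intermediate arrays, from 236 to 433, and 4 late arrays, from 303 to 453, did not overlap with them. AT5G61570, a protein kinase gene, had the highest early share of the named members, 0.807. It read 23.9 and 17.7 in mock, 17.8 and 5.54 after campestanol, 30.2 and 22.7 after 6-deoxocathasterone, 32.9 and 34.3 after cathasterone, 42.2 and 26.1 after castasterone and 45.2 and 28.5 after brassinolide, with 20.9 to 46.5 and a median of 32.2 over the intermediates. Its signal was low, campestanol array B was the lowest at 5.54, and the gene was kept as a member in 9 of the 12 repeats of the rule that left out 1 array. AT1G01540, a further protein kinase gene just above the threshold at an early share of 0.375, read 117, 127, 141 and 142 on the mock and campestanol arrays, 152, 161, 159 and 191 on the 6-deoxocathasterone and cathasterone arrays and 246, 251, 226 and 243 on the castasterone and brassinolide arrays, and lay between 165 and 268 with a median of 207 after the intermediates. Its 14 intermediate arrays were all above mock and campestanol.

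Of the named transcription factors, BZIP61 belongs to the basic leucine zipper family, and AT1G64380 and AT1G77640 to the AP2/ERF family. BZIP61 read 99.6 and 73.5 in mock, 129 and 82.3 after campestanol, 182 and 106 after 6-deoxocathasterone and 152 and 146 after cathasterone. It lay between 151 and 336 after the intermediates, with a median of 218, and read 366 and 209.7 after castasterone and 308 and 159 after brassinolide. 6-deoxocathasterone array B was below campestanol array A, and array A was the higher of the pair in most treatments. AT1G64380, with an early share of 0.640 and kept as a member in 7 of the 12 repeats that left out 1 array, read 23.4 and 12.4 in mock, 19.7 and 13.02 after campestanol, 45.8 and 16.3 after 6-deoxocathasterone, 31.2 and 21.01 after cathasterone, 37.9 and 31.9 after castasterone and 39.2 and 29.5 after brassinolide. Its intermediate arrays lay between 18.4 and 46.8 with a median of 32.3, and 12 of the 14 exceeded mock and campestanol. AT1G77640 lay between 40.4 and 85.8 after the intermediates, all above its mock and campestanol range of 23.5 to 31.3.

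The group of enzymes held 6 named members. AT3G06770 encodes a pectin lyase-like protein, a family that acts on the pectin of cell walls. Its intensity was 159.7 and 144 in mock, 157 and 131 after campestanol, 239 and 196 after 6-deoxocathasterone, 255 and 262 after cathasterone, 261 and 312 after 6-deoxoteasterone, 295 and 349 after teasterone and 347 and 327 after 3-dehydro-6-deoxoteasterone. It was 449.7 and 410.3 after 3-dehydroteasterone, 292 and 317 after 6-deoxotyphasterol, 469 and 425 after typhasterol, 426 and 406 after 6-deoxocastasterone, 443 and 460.4 after castasterone and 535 and 487 after brassinolide. No array from 6-deoxocathasterone on overlapped with mock or campestanol. AT5G44680, a gene of the DNA glycosylase family, which removes damaged bases from DNA, read 72.1 and 85.9 in mock, 73.6 and 83.7 after campestanol, 149 and 152 after 6-deoxocathasterone, 170.2 and 169.7 after cathasterone, 170.2 and 180.0 after 6-deoxoteasterone, 204 and 237 after teasterone and 251 and 230.5 after 3-dehydro-6-deoxoteasterone. It then read 267 and 239 after 3-dehydroteasterone, 144 and 185 after 6-deoxotyphasterol, 246 and 234 after typhasterol, 308 and 172 after 6-deoxocastasterone, 339 and 258 after castasterone and 277 and 272 after brassinolide. All 22 steroid arrays other than campestanol were above its 4 reference arrays, and the 6-deoxocastasterone arrays differed most from each other.

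AOP1, a 2-oxoglutarate-dependent dioxygenase gene from the cluster whose relatives modify glucosinolate side chains, read 35.97 and 26.4 in mock, 31.5 and 26.1 after campestanol, 46.2 and 42.7 after 6-deoxocathasterone and 70.5 and 53.2 after cathasterone. Its cathasterone arrays overlapped with its late arrays, which read 70.3 and 58.5 after castasterone and 68.3 and 73.9 after brassinolide. After the intermediates it lay between 35.5 and 69.5 with a median of 56.00, and 6-deoxoteasterone array A fell within the mock and campestanol range. AT1G71710, an inositol polyphosphate phosphatase gene, stood near the threshold with an early share of 0.358. It read 104, 129, 95.6 and 139 on the mock and campestanol arrays, 116, 173, 133 and 172 on the 6-deoxocathasterone and cathasterone arrays and 180.0, 241, 213 and 272 on the castasterone and brassinolide arrays, with 113 to 237 and a median of 171 over the intermediates. Array B was the higher of each pair, and early arrays overlapped with mock and campestanol. The alpha/beta hydrolase gene AT1G80280 lay between 99.8 and 173 after the intermediates, above its mock and campestanol range of 69.7 to 85.1. The lipase gene AT1G02660 overlapped, with 31.6 to 155 after the intermediates and 19.4 to 48.8 in mock and campestanol.

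Transporters supplied 4 named members, GTR1, a glucosinolate importer of the plasma membrane, AT5G44050 and AT4G23030 of the MATE family of efflux carriers, and AT1G12500 of the nucleotide sugar transporter family. GTR1 lay between 126 and 216 after the intermediates, against 96.9 to 114 in mock and campestanol, without overlap. AT1G12500 likewise did not overlap, at 348 to 531 against 231 to 286. AT4G23030 overlapped, at 20.9 to 47.3 against 15.8 to 22.6, and had 12 of 14 intermediate arrays above mock and campestanol. AT5G44050 read 12.1, 16.3, 9.60 and 23.2 on the mock and campestanol arrays, 25.8, 23.3, 17.2 and 17.8 on the 6-deoxocathasterone and cathasterone arrays and 32.1, 38.5, 27.1 and 54.05 on the castasterone and brassinolide arrays, with 12.5 to 45.2 and a median of 31.5 over the intermediates. Its early arrays overlapped with campestanol array B, and 9 of 14 intermediate arrays were above all 4 reference arrays.

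AT5G24570, which has no role given here, showed the largest late change of the named members, with a mean D of 2.32. It read 72.1 and 62.98 in mock, 59.2 and 97.8 after campestanol, 172 and 101 after 6-deoxocathasterone, 184 and 147 after cathasterone, 148 and 225 after 6-deoxoteasterone, 172 and 258 after teasterone and 265 and 268 after 3-dehydro-6-deoxoteasterone. It read 197 and 309 after 3-dehydroteasterone, 161 and 277 after 6-deoxotyphasterol, 394 and 365 after typhasterol, 318 and 273 after 6-deoxocastasterone, 290.2 and 461 after castasterone and 313 and 487 after brassinolide. Array B was well above array A after castasterone and brassinolide, yet the lowest of its 22 later arrays was above all 4 mock and campestanol arrays. AT2G47440, a gene of the tetratricopeptide repeat family of protein-binding scaffolds, was brighter. It read 187 and 212 in mock, 219 and 189.9 after campestanol, 380.5 and 332 after 6-deoxocathasterone, 337 and 393 after cathasterone, 350.4 and 492 after 6-deoxoteasterone, 525 and 508 after teasterone and 568 and 549.9 after 3-dehydro-6-deoxoteasterone. Its later values were 746 and 697 after 3-dehydroteasterone, 556 and 515 after 6-deoxotyphasterol, 597 and 816 after typhasterol, 679 and 767 after 6-deoxocastasterone, 615 and 843 after castasterone and 818 and 646 after brassinolide. No array from 6-deoxocathasterone on overlapped with mock or campestanol, and the 6-deoxotyphasterol arrays were lower than those of 3-dehydroteasterone and typhasterol.

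**Figure D3:**
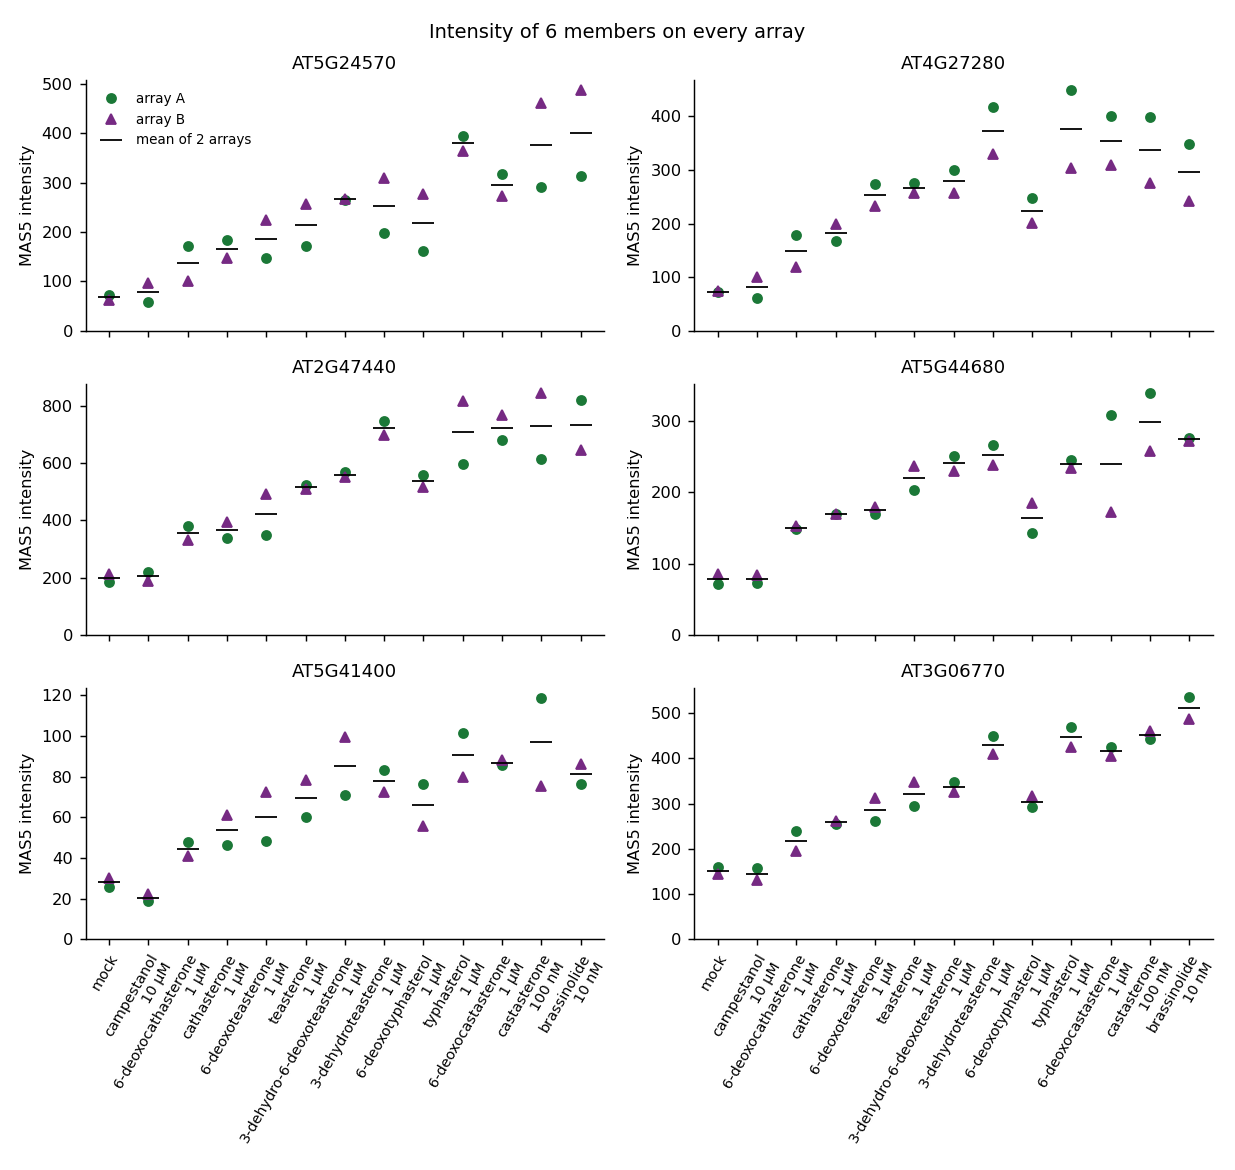
MAS5 intensity (vertical axes, from 0) of 6 named members on both arrays of each treatment, in the order of the route, with circles for array A, triangles for array B and bars for the mean of both. The mean of all 6 members after cathasterone lies above those of mock and campestanol and below that after teasterone, and the mean after 6-deoxotyphasterol lies below that after 3-dehydroteasterone in all 6 panels.

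AT5G41400, a RING-type zinc finger gene of the kind found in ubiquitin ligases, read 25.9 and 30.03 in mock, 18.6 and 22.4 after campestanol, 47.7 and 40.7 after 6-deoxocathasterone and 46.1 and 61.2 after cathasterone. Its 14 intermediate arrays lay between 48.4 and 101 with a median of 77.4, and it read 118 and 75.3 after castasterone and 76.4 and 86.2 after brassinolide. No early, intermediate or late array overlapped with its 4 reference arrays. AT4G29780, a nuclease-like gene, read 27.7 and 22.4 in mock, 21.8 and 33.5 after campestanol, 46.1 and 31.1 after 6-deoxocathasterone, 43.97 and 39.3 after cathasterone, 70.8 and 68.4 after castasterone and 73.9 and 69.98 after brassinolide. It lay between 38.2 and 78.95 after the intermediates, with a median of 63.4. Only its 6-deoxocathasterone array B, at 31.1, fell below a reference array.

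AT2G36220 and AT3G28270, with no role given here, spread more between arrays. AT2G36220 read 13.1 and 28.3 in mock, 46.1 and 20.3 after campestanol, 61.7 and 32.6 after 6-deoxocathasterone, 40.1 and 44.6 after cathasterone, 126 and 81.9 after castasterone and 124 and 94.1 after brassinolide, with 44.1 to 127 and a median of 62.8 over the intermediates. Campestanol array A exceeded 3 of its 4 early arrays. AT3G28270 read 8.34 and 17.9 in mock, 10.8 and 19.8 after campestanol, 20.2 and 28.8 after 6-deoxocathasterone, 16.9 and 37.6 after cathasterone, 27.4 and 76.97 after castasterone and 27.8 and 41.5 after brassinolide. Over the intermediates it lay between 11.7 and 80.1 with a median of 34.8, and array B was higher than array A in all 13 groups. AT2G23700 and AT5G10040, both with high early shares (0.651 and 0.694), had reference arrays that differed widely. AT2G23700 read 3.75, 29.4, 13.1 and 10.01 on the mock and campestanol arrays, 14.7, 22.5, 23.6 and 28.1 on the 6-deoxocathasterone and cathasterone arrays and 24.8, 29.3, 32.3 and 31.01 on the castasterone and brassinolide arrays, with 9.89 to 51.6 and a median of 24.2 over the intermediates. AT5G10040 read 79.6, 49.1, 9.96 and 50.3 on the mock and campestanol arrays, 50.7, 116, 65.7 and 67.1 on the 6-deoxocathasterone and cathasterone arrays and 79.3, 68.6, 131 and 103 on the castasterone and brassinolide arrays, with 33.04 to 220.2 and a median of 92.2 over the intermediates. In AT2G23700 4 of 14 intermediate arrays were above all 4 reference arrays and in AT5G10040 8 of 14. Their lowest arrays were mock array A and campestanol array A, and they were kept as members in 11 and 10 of the 12 repeats that left out 1 array.

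A few members showed another pattern. ndhF and ndhG, which encode subunits of the chloroplast NDH complex of cyclic electron flow, and AT2G07722, whose probe set identifier marks sequence shared between transcripts, were high on some A arrays and near mock on most B arrays. ndhF read 14.2 and 14.2 in mock, 15.3 and 13.9 after campestanol, 17.3 and 8.37 after 6-deoxocathasterone, 100.1 and 11.5 after cathasterone, 26.3 and 13.2 after 6-deoxoteasterone, 6.30 and 12.7 after teasterone and 73.5 and 135 after 3-dehydro-6-deoxoteasterone. It read 7.48 and 13.6 after 3-dehydroteasterone, 157 and 7.35 after 6-deoxotyphasterol, 59.7 and 7.41 after typhasterol, 221 and 5.75 after 6-deoxocastasterone, 104 and 14.9 after castasterone and 172 and 9.25 after brassinolide. Array B exceeded 20 in 3-dehydro-6-deoxoteasterone alone. ndhG reached 907 and 173 after cathasterone and 839.6 and 330.0 after brassinolide, but 184 and 241 after teasterone, against 263 and 223 in mock. Their D after teasterone was -0.45 for ndhF and -0.24 for ndhG. Without these 3 members the median D was 0.68 after 6-deoxoteasterone, 0.94 after teasterone and 1.11 after typhasterol, against 0.67, 0.93 and 1.10 with them.

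**Figure D4:**
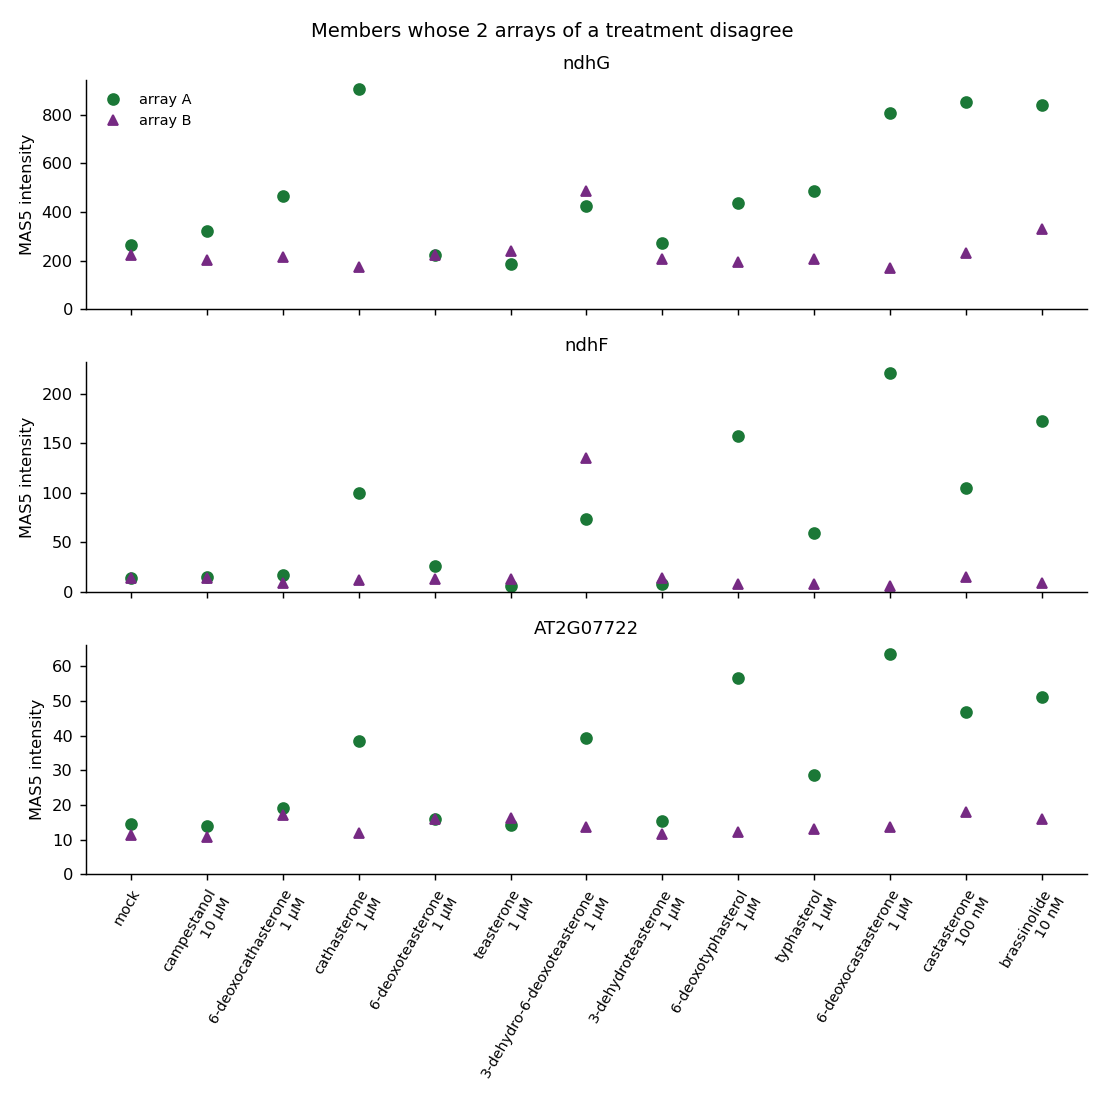
MAS5 intensity (vertical axes, from 0) of ndhG, ndhF and AT2G07722 on array A (circles) and array B (triangles) of each treatment, in the order of the route. Array A stands far above array B after cathasterone, 6-deoxocastasterone, castasterone and brassinolide (ndhF 172 against 9.25 after brassinolide), while both arrays are low after teasterone and 3-dehydroteasterone.

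Members without a gene name held the largest changes. Probe set 259784_at, with a mean late D of 2.68, read 15.6, 1.90, 14.99 and 0.895 on the mock and campestanol arrays, 50.4, 38.05, 34.2 and 36.6 on the 6-deoxocathasterone and cathasterone arrays and 52.6, 67.00, 85.7 and 71.2 on the castasterone and brassinolide arrays. Its array B in mock and campestanol lay under 2, near the lower end of the scale, so its D depends on the added constant. Probe set 258145_at read 31.99, 17.9, 16.5 and 12.4, 68.00, 52.3, 52.9 and 63.6 and 114, 136, 97.8 and 154 on the same arrays, and 259790_s_at read 28.3, 23.7, 25.9 and 24.9, 143, 61.9, 118 and 76.1 and 171, 135, 146 and 188. For all 3 the 14 intermediate arrays were above all 4 reference arrays. Of the 40 named members placed in gene order (RefSeq, TAIR10.1), AT1G70985 and AT1G70990 had no protein-coding gene in between, and no other pair lay within 2 genes of each other.

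Probe sets on either side of the thresholds had nearly the same ratios. Just inside lay 256522_at with an early share of 0.35, ndhF with 0.355, AT5G44050 with 0.357 and 250437_at with 0.357. Just outside lay AT4G31000 with 0.347, AT5G47550 with 0.347, UPB1 with 0.346 and AT4G19160 with 0.344. AT4G31000 read 24.5, 28.8, 31.6 and 42.1 on the early arrays and 17.5, 22.7, 18.6 and 22.3 in mock and campestanol, and AT5G47550 read 714, 448, 759 and 569 and 556, 441, 574 and 400.2. UPB1 (UPBEAT1), a bHLH transcription factor that governs reactive oxygen species at the root tip, read 28.5, 25.1, 25.8 and 26.2 and 25.5, 12.5, 27.5 and 16.2, and AT4G19160 read 185, 152, 161 and 152 and 123, 94.00, 146 and 145. Among members 256522_at read 104, 66.7, 90.1 and 94.1 on the early arrays and 52.6, 58.9, 73.5 and 59.6 in mock and campestanol, and 250437_at read 532, 436, 742 and 544 and 553, 319, 416 and 311. At the other threshold 252906_at, AT1G01540 and AT1G12500 lay just inside, with the lower of their brassinolide and castasterone D at 0.801, 0.812 and 0.813, and AT1G19540, 245998_at and 247431_at just outside at 0.799, 0.797 and 0.790. Leaving out each of the 12 arrays in turn gave between 83 members (without 6-deoxocathasterone array A) and 138 (without mock array A), and 36 of the 102, 14 of them naming 1 gene, were kept in all 12 of these repeats, AT4G27280, AT2G47440 and AT5G44680 among them. Of the named members ndhF, AT5G44050 and AT1G71710 were kept in 5 of the 12 repeats, ndhG in 6, AT1G01540 and AT1G64380 in 7 and AT1G12500, AT1G70985 and AT2G46780 in 8, and the others in 9 or more.

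Later intermediates were next set against earlier ones, a comparison whose means contain none of the rule's arrays. The spread behind the intervals and p-values was estimated over all groups, so the rule's arrays do have a part in those. The mean of typhasterol and 6-deoxocastasterone was compared with the mean of teasterone and 6-deoxoteasterone, all at 1 µM. 6-deoxotyphasterol, the counterpart of typhasterol in the 6-deoxo branch, was on neither side. The members' median D after it was 0.82, below the 0.93 after teasterone, so the comparison does not describe every later intermediate. The members were higher after typhasterol and 6-deoxocastasterone, by a median log2 difference of 0.35, with 97 of 102 above 0. Over all tested probe sets the median was 0.02 and 53.4% were above 0. limma called 0 members at an adjusted p under 0.05, where it called 0.108% of all tested probe sets. This fit had no term for the array letter. With the letter as a block limma did call members, and more of all tested probe sets, as given with the processing below. In the fit without the block 40 members, all higher, had an unadjusted p under 0.05. Beside them 4.57% of all tested probe sets were higher at that level. The other induced probe sets had a median of 0.53, with 11 of 246 called and 176 at an unadjusted p under 0.05. The arrays did not overlap for 18 members, all higher, beside 2.68% of all tested probe sets. Without 6-deoxocastasterone array A the members' median difference was 0.21.

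AT3G06770, the pectin lyase-like gene, gave the lowest adjusted p of the named members. It read 469 and 425 after typhasterol and 426 and 406 after 6-deoxocastasterone, against 295 and 349 after teasterone and 261 and 312 after 6-deoxoteasterone, and the groups did not overlap. The log2 difference was 0.50 (95% interval 0.28 to 0.73), with an adjusted p of 0.0666 in limma. AT2G47440, the repeat-protein gene, read 597 and 816 and 679 and 767 after the later compounds, against 525 and 508 and 350.4 and 492 after the earlier ones, again without overlap. It differed by 0.61 (95% interval 0.32 to 0.90), with an adjusted p of 0.0993 in limma. With the array letter as a block, which the labels tie to no batch, the adjusted p in limma was 0.00967 for AT3G06770 and 0.0150 for AT2G47440. AT3G54000 differed by 0.54 (95% interval 0.27 to 0.82) and AT4G34150 by 0.43 (95% interval 0.18 to 0.68). AT5G24570 differed by 0.75 (95% interval 0.26 to 1.25), AT4G27280 by 0.47 (95% interval 0.08 to 0.86) and THE1 by 0.40 (95% interval 0.13 to 0.67). AT1G64380 and AT5G61570, with high early shares, differed by -0.17 (95% interval -0.75 to 0.41) and 0.09 (95% interval -0.42 to 0.59), with intervals too wide to exclude the median of the members. By role, the later compounds were above the earlier ones in 4 of 4 kinase and peptide genes, 3 of 3 calcium and lipid binding genes, 2 of 3 transcription factors, 4 of 4 transporters and 6 of 6 enzymes. Of all members 97 of 102 were above 0, so these counts set no role apart. None of these members passed the adjusted threshold in the fit that had no term for the array letter.

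**Figure D5:**
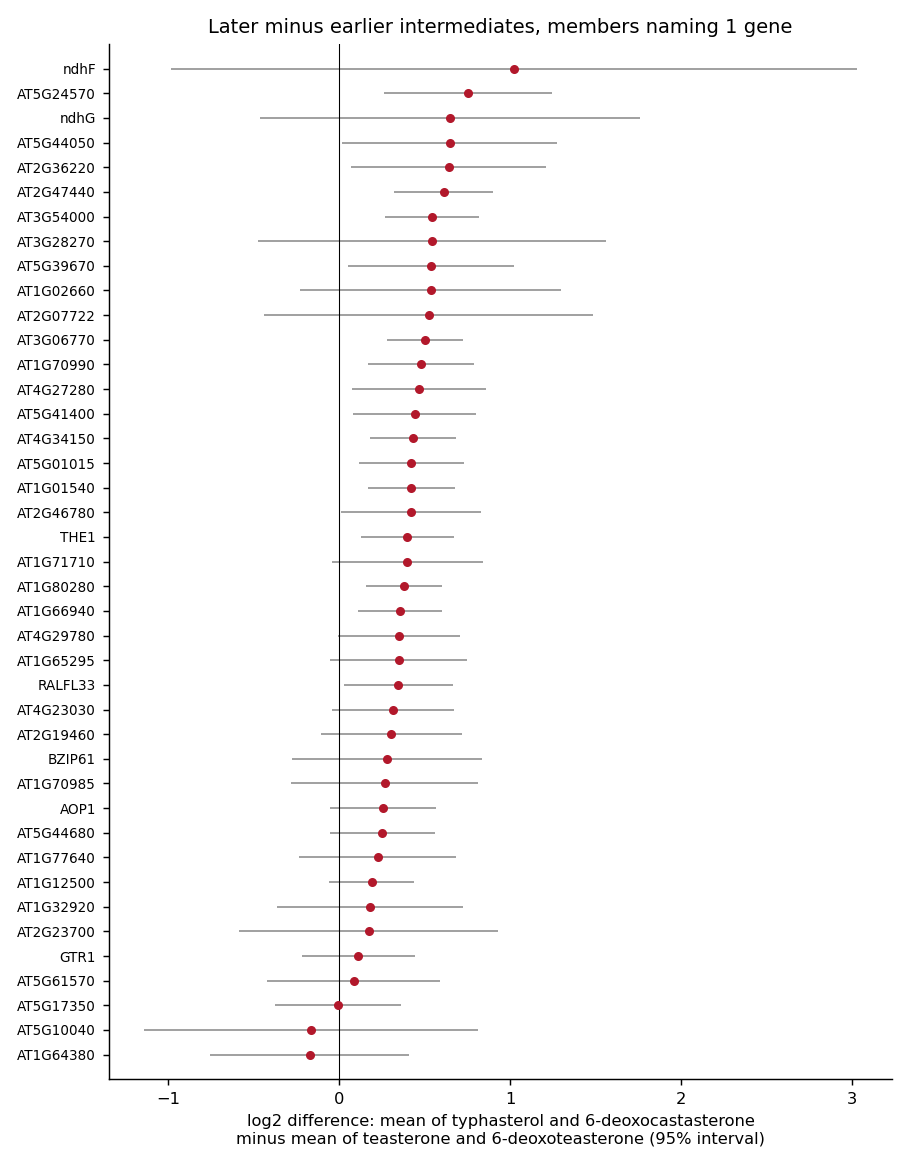
Log2 difference of the later intermediates (mean of typhasterol and 6-deoxocastasterone) minus the earlier ones (mean of teasterone and 6-deoxoteasterone) on the horizontal axis, with 95% intervals from limma, for the 41 members naming 1 gene, ordered by the difference. Most points lie to the right of 0, AT3G06770 and AT2G47440 have short intervals that exclude 0, and ndhF has the widest; the intervals are not adjusted for the number of probe sets.

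The ketone at carbon 6 was examined in 3 pairs of compounds, all at 1 µM. In the typhasterol pair the members were higher with the ketone by a median of 0.35, with 89 of 102 above 0. The medians were 0.25 in the teasterone pair and 0.09 in the 3-dehydroteasterone pair, and 0.24 for the average of the pairs, with 91 of 102 above 0. The other induced probe sets had medians of 0.49, 0.20 and 0.24 in the same order and 0.32 for the average, and those of all tested probe sets lay between -0.03 and 0.01. limma called 0 members in the typhasterol, teasterone and 3-dehydroteasterone pairs, as it called 0.00% of all tested probe sets in each. At an unadjusted p under 0.05, 20, 8 and 3 members were higher, beside 1.87%, 1.66% and 1.39% of all tested probe sets, and no member was lower. For the average it called 0 members and 0.0114% of all tested probe sets, and 25 members were higher at an unadjusted p under 0.05, beside 2.75%. For AT3G06770, which read 469 and 425 after typhasterol and 292 and 317 after 6-deoxotyphasterol, the difference was 0.55 (95% interval 0.23 to 0.86) in that pair and 0.35 (95% interval 0.17 to 0.53) on average, with adjusted p of 0.962 and 0.493 in limma. The nuclease-like gene AT4G29780 read 75.6 and 73.2 after typhasterol and 43.8 and 45.3 after 6-deoxotyphasterol, a difference of 0.68 (95% interval 0.18 to 1.18), and 0.47 (95% interval 0.18 to 0.76) on average. The calcium-binding protein gene AT4G27280 differed by 0.72 (95% interval 0.16 to 1.27) in the typhasterol pair.

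Steps at carbon 3 could be compared in both branches. In the oxidation of the 6-deoxo branch 3-dehydro-6-deoxoteasterone exceeded 6-deoxoteasterone by a median of 0.35 in the members, with 95 of 102 above 0, and in the 6-oxo branch 3-dehydroteasterone exceeded teasterone by 0.16, with 78 above 0. The reduction that follows had a median of -0.19 in the 6-deoxo branch, where 6-deoxotyphasterol was lower than 3-dehydro-6-deoxoteasterone in 80 of 102 members, beside 53.6% of all tested probe sets. In the 6-oxo branch typhasterol stood 0.02 above 3-dehydroteasterone. The other induced probe sets had medians of 0.30 in the 6-deoxo oxidation and 0.30 in the 6-oxo oxidation. In the reductions their medians were -0.11 in the 6-deoxo branch and 0.14 in the 6-oxo branch, so the lower level after 6-deoxotyphasterol was not particular to the members. limma called 0 members in each of these 4 comparisons and 0.00% of all tested probe sets. In the oxidations 13 members of the 6-deoxo branch and 5 of the 6-oxo branch were higher at an unadjusted p under 0.05, beside 2.06% and 0.818% of all tested probe sets. In the reductions 10 members of the 6-deoxo branch, all lower, and 0 of the 6-oxo branch had an unadjusted p under 0.05, beside 3.54% and 1.66% of all tested probe sets in either direction. AT5G44680 read 144 and 185 after 6-deoxotyphasterol, against 251 and 230.5 after 3-dehydro-6-deoxoteasterone, a difference of -0.55 (95% interval -0.98 to -0.11). AT1G66940 was the named member with the lowest unadjusted p in the 6-deoxo oxidation, at 0.51 (95% interval 0.16 to 0.86). The difference between the branches was itself tested: limma called 0 members for the oxidation and 0 for the reduction, and 0.00% of all tested probe sets, with 1 and 6 members at an unadjusted p under 0.05, beside 2.45% and 3.43%.

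Hydroxylation at carbon 2 could be compared at 1 µM in the 6-deoxo branch. 6-deoxocastasterone was above 6-deoxotyphasterol by a median of 0.36 in the members, with 92 of 102 above 0, while the other induced probe sets had a median of 0.44 and all tested probe sets 0.03. The 6-deoxocastasterone arrays had the lowest correlation between A and B of the 13 groups, 0.948. The members' median D was 1.37 on its array A and 1.03 on its array B. limma called 0 members and 0.00568% of all tested probe sets. An unadjusted p under 0.05 was found for 22 members, all higher, beside 3.26% of all tested probe sets that were higher at that level. The EF-hand gene AT5G39670 differed most among the named members. It read 82.2 and 91.1 after 6-deoxocastasterone and 23.1 and 28.9 after 6-deoxotyphasterol, without overlap, a log2 difference of 1.57 (95% interval 0.89 to 2.25) with an adjusted p of 0.222 in limma. With the array letter as a block, which the labels tie to no batch, its adjusted p was 0.0184 in limma. AT5G39670 was not alone in this. The block fit also called other members, and more of all tested probe sets than the fit without it, as given with the processing below. The MATE transporter gene AT4G23030 differed by 0.75 (95% interval 0.25 to 1.25), AT1G70990 by 0.66 (95% interval 0.23 to 1.10) and AT3G06770 by 0.44 (95% interval 0.13 to 0.76). Differences of castasterone and brassinolide from the intermediates were not tested, since their doses were lower.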

How the data were processed

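The deposited intensity values were used as given, on a linear scale; the authors computed them with MAS5, per the submitters' processing notes, and neither version nor parameters are known here. The trimmed mean was near 100 on every array, so no further normalization was applied. Of 22810 probe sets 64 controls were left out. Genes were named from the platform table, which gave 1 gene for 13513 probe sets, and from RefSeq (TAIR10.1), which matched 13436. The members, the gene lists and the tests were chosen with earlier results of these data known.

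Values were transformed as log2(intensity + 5), which makes the changes of weak signals look smaller. The fit, by limma 3.58.1 (R 4.3.3), held a coefficient for each of the 13 groups and used eBayes with an intensity trend, for 17606 probe sets with a mean of at least 10, and p-values were adjusted by Benjamini-Hochberg over all of them in each of 10 comparisons among the 7 intermediates. Every member naming 1 gene could be named. Values per array were given for the 12 largest late changes, the 6 highest early shares and the 4 on each side of the early-share threshold, and unnamed probe sets by identifier for the 3 largest changes or at a threshold. The script was tested on simulated data. No sequence is shown: no table of promoter or protein sequences was used here. Other pseudocounts, filters, normalizations, variance models, a block for the array letter and fits without each array were tried.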

Additional observations from a re-analysis of the deposited data

How the results depend on the processing

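Of 208 repeats under other settings 203 gave the result as reported, within 1.5 times for a count, within the spread between arrays for a median, and none reversed. The array letter was taken as a block because it is shared by all groups, although the labels do not say that a letter marks a common batch. Differences between arrays A and B correlated between groups in 76 of 78 pairs above 0.1 (range -0.02 to 0.484, median 0.317). With this replicate block limma called 13 members for later against earlier intermediates, AT3G06770 (adjusted p of 0.00967 in limma), AT2G47440, AT3G54000, AT1G01540 and AT1G71710 among them, and 267 of all tested probe sets, and 3 members for hydroxylation at carbon 2, AT5G39670 among them, and 41 of all; in the other 8 comparisons the block changed no count of members called. Without 6-deoxoteasterone array B limma called 1 member for later against earlier intermediates, and leaving out each array gave 0 to 1. The median difference of the members in that comparison ranged from 0.206 (without 6-deoxocastasterone array A) to 0.452 when an array was left out, and the average over the carbon 6 pairs from 0.188 to 0.279. A pseudocount of 16 left 62 members, a pseudocount of 1 gave 130 and the mock arrays alone as reference 150. Leaving out each array gave 83 to 138 members. The contrast between branches and the medians without ndhF, ndhG and AT2G07722 were added after seeing the data. Whether the number of arrays or dim signal limited the calls was not tested.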

Other observations

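The letter of the array went with the level of some members in every treatment. AT3G28270 and AT1G71710 were higher on array B than on array A in 13 of 13 groups. AT3G28270 lay between 17.9 and 80.1 on the B arrays and between 8.34 and 28.5 on the A arrays. AT1G71710 lay between 129 and 272 on the B arrays and between 95.6 and 213 on the A arrays. A further 2 members were higher on array A in all 13 groups, and 16 of the 102 had the same letter higher in at least 12 groups. These counts are given for the members alone, so they do not show whether other probe sets differ by letter less often. The labels do not say what the letters stand for.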
